A study of Mus musculus with 6 samples.

Results

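Eosinophils, basophils and mast cells are granulocytes of allergy and of defence against parasites, and their genes were followed here as a set of 10 among 48733 named genes: *Prg2*, *Prg3*, *Epx*, *Mcpt8*, *Cpa3*, *Ms4a2*, *Fcer1a*, *Mcpt4*, *Cma1* and *Tpsb2*. A gene was a member when its name in the deposited tables equalled one of these, and its FPKM (read pairs scaled to transcript length and to the library's aligned reads) were summed by name. Each of the 10 had 1 feature in every table. The libraries come from mice of the inbred Collaborative Cross strain CC016/GeniUnc. Of the 6 libraries, 3 carry the label bone and are described as femoral cortical bone with the marrow removed. The other 3 carry the label osteoblasts and are described as cells grown from bone marrow stromal cells, which the submitters differentiated for 8 days with ascorbic acid at 50 µg/ml, dexamethasone at 10 nM and beta-glycerophosphate at 10 mM. The age and sex of the mice are not given in the sources used here, and no engineered allele is named for either group.

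All 3 cell types arise in the bone marrow. Eosinophils pack toxic cationic proteins into their granules, and the mRNAs for these proteins are made mainly while the cells mature in the marrow. Basophils circulate in small numbers and, like mast cells, bind IgE through a high-affinity receptor and store histamine and serine proteases. Mast cells leave the marrow as progenitors and mature in connective tissue and mucosa, where chymases, tryptases and carboxypeptidase A fill their granules.

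The labels did not part the libraries by blood content. *Hbb-bt*, a beta-globin gene of red cells, was above 1000 FPKM in bone replicate 3 (34838) and in replicates 2 and 3 of osteoblasts (34268 and 48650). The values of bone replicates 1 and 2 were 7.05 and 3.58 FPKM, and that of osteoblasts replicate 1 was 3.43 FPKM. The high values thus fell under both labels, in 1 library described as bone without marrow and in 2 described as cultured cells, and no label was changed for this. These 3 are called here the libraries with *Hbb-bt*. Bone genes did not follow the labels either. *Col1a1* was 1499 to 3332 FPKM over the 6 libraries, but *Ibsp*, the bone sialoprotein, was 43.1 to 91.3 FPKM in the libraries with *Hbb-bt* and 986 to 1278 FPKM in the others, and *Dmp1*, a matrix protein of osteocytes, was 22.5 to 24.2 against 50.0 to 127 FPKM. *Sost*, the sclerostin gene of osteocytes, ran the other way, at 15.8 to 22.7 against 0.0661 to 0.198 FPKM. Of the other bone genes listed, *Alpl* was lower in each library with *Hbb-bt* than in any other. *Col1a2*, *Sp7*, *Runx2* and *Phex* were without such an order in FPKM. With FPKM scaled to the sum of named genes, *Col1a1*, *Col1a2*, *Sp7* and *Phex* were lower in each library with *Hbb-bt* too, but *Runx2* was not. Whether libraries were exchanged before deposit was not tested, and an exchange would change what each value by label means. The split rests on a measured value and not on the design, so values are given for each library and no test was made between its sides. The libraries held 2.03 to 3.39 Gb of aligned bases, and a 1 kb transcript with 3 read pairs would have 0.133 to 0.221 FPKM. Features without a gene name took 71.5% of the FPKM in bone replicate 2 and 65.0% in osteoblasts replicate 1, and 27.4 to 30.7% in the other 4 libraries.

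The upstream sequences of the members differ in whether they hold a GATA site, the motif bound by GATA1 and GATA2, the factors on which these 3 lineages depend. Promoter windows from RefSeq on GRCm38.p6, the build of the files, were found for 8 of the 10 members; *Prg2* and *Tpsb2* were not matched. The 250 bases before the transcript start used in that table were searched on both strands for AGATAA and TGATAA, and for the versions with a final G, AGATAG and TGATAG. At least 1 of these was present in 6 of the 8 windows (*Prg3*, *Cpa3*, *Ms4a2*, *Fcer1a*, *Mcpt4* and *Cma1*), and in 26.5% of all 32851 windows of this length. *Ms4a2* had 3 matches, beginning 224, 37 and 11 bases before the start, and *Cpa3* had 1, beginning 46 bases before it. The windows of *Epx* and *Mcpt8* held none. The RefSeq gene begins further upstream than this start by 302 bases for *Mcpt8*, whose window thus lies within the gene, by 71 for *Ms4a2*, whose matches at 37 and 11 do so too, by 28 for *Cpa3*, 19 for *Prg3* and 3 for *Fcer1a*. GAGGAA, a core bound by PU.1, was present in those of *Mcpt8* and *Fcer1a* and in 23.3% of all windows. The sequences of 5 members, chosen to show windows with and without a match among the genes described most closely, follow from 5′ to 3′ with the GATA matches in capitals. They are the reference sequence and not that of CC016/GeniUnc, and a match is a description of letters only.
Prg3 (chr2:84987965-84988214, plus strand): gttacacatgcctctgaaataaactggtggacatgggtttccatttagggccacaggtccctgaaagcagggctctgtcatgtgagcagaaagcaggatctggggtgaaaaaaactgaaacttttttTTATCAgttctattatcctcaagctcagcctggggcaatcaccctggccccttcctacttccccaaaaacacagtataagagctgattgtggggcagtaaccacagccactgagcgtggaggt
Epx (chr11:87875537-87875786, minus strand): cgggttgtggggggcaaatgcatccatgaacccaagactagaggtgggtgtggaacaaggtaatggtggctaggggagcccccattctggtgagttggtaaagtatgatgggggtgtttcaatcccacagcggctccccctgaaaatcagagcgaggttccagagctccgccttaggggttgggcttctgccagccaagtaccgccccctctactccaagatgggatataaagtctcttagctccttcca
Mcpt8 (chr14:56085198-56085447, minus strand): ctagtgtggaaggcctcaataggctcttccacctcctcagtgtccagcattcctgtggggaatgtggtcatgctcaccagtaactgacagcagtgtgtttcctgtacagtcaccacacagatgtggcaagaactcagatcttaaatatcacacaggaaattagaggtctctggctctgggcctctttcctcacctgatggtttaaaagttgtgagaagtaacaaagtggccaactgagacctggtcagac
Cpa3 (chr3:20242182-20242431, minus strand): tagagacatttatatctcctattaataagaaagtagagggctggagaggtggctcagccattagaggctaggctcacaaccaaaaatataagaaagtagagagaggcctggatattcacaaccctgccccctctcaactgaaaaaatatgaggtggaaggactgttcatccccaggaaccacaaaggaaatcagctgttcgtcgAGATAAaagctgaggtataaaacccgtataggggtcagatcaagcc
Ms4a2 (chr19:11623720-11623969, minus strand): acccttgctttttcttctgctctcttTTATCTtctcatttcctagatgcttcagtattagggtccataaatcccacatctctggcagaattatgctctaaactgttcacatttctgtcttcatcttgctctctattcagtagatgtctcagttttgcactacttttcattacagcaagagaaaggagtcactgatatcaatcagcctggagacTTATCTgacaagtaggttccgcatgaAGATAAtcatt

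Among the eosinophil granule genes, *Prg2* was the most abundant of the 10 members. It encodes major basic protein, the protein of the crystalline core of the granule, and occupies 84980461 to 84983632 of Chr. 2, plus strand. *Prg2* was 1495 FPKM in bone replicate 3, against 1185 and 1082 FPKM in replicates 2 and 3 of osteoblasts. It was 0.11 FPKM in bone replicate 1 and listed at 0 in bone replicate 2 and osteoblasts replicate 1. The value in bone replicate 1 corresponds to about 1.5 read pairs on its transcript of 838 bases and is under the 0.216 FPKM that 3 pairs would give there. The high and the low libraries thus occurred under both labels, and the labels overlapped. In the libraries with *Hbb-bt*, *Prg2* ranked 51st, 59th and 57th among all named genes in bone replicate 3, osteoblasts replicate 2 and osteoblasts replicate 3.

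*Epx* encodes eosinophil peroxidase, the heme enzyme that makes oxidants from halides, and occupies 87864000 to 87875536 of Chr. 11, minus strand. It was 136 FPKM in bone replicate 3, against 108 and 96.9 FPKM in replicates 2 and 3 of osteoblasts. *Prg3*, a homolog of *Prg2* that encodes a second form of major basic protein, begins 4582 bases downstream of *Prg2* on the same strand (84988215 to 84993886). It was 95.6, 89.4 and 79.7 FPKM in the same 3 libraries. The *Prg3* feature stops 2673 bases short of the end of the RefSeq gene, and the effect of this on its values was not tested. Both genes were listed at 0 in bone replicates 1 and 2 and in osteoblasts replicate 1, where 3 read pairs would have given at most 0.0822 FPKM for *Epx* and 0.233 FPKM for *Prg3*. As for *Prg2*, bone replicate 3 had the highest value and osteoblasts replicate 3 the lowest of those above 0.

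The proportions among these eosinophil genes were close to fixed across the libraries that held them. *Epx* was 9.13% of *Prg2* in bone replicate 3, 9.09% in osteoblasts replicate 2 and 8.95% in osteoblasts replicate 3, so the highest ratio was 1.02 times the lowest. *Prg3* was 6.40%, 7.54% and 7.36% of *Prg2* in the same order, a spread of 1.18 times. A ratio within a library does not depend on how that library was scaled, and these are 3 values without replicates of their own. Together the 3 genes made up 99.0%, 98.5% and 98.3% of the summed FPKM of the 10 members in these libraries, and *Prg2* alone 85.7%, 84.5% and 84.5%. In all, the 10 members summed to 1745, 1403 and 1280 FPKM there, and to 3.62, 3.14 and 3.13 FPKM in bone replicate 1, bone replicate 2 and osteoblasts replicate 1.

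**Figure D1:**
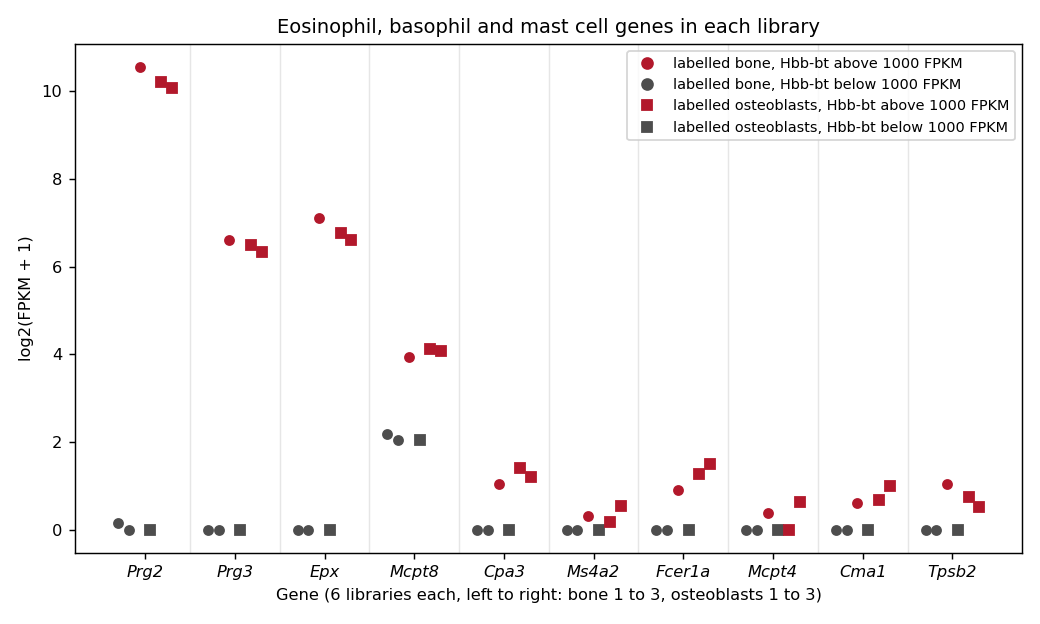
Level of each of the 10 genes as log2(FPKM + 1) on the y axis, with 1 point per library, circles for the label bone and squares for osteoblasts, red where *Hbb-bt* was above 1000 FPKM. *Prg2*, *Prg3* and *Epx* sit above 6 on this scale in the 3 red libraries and at or near 0 in the other 3, while *Mcpt8* is above 2 in all 6.

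*Mcpt8* was the only member above 3 FPKM in every library. It encodes mast cell protease 8, which despite its name is a serine protease of mouse basophils, and occupies 56082166 to 56085273 of Chr. 14, minus strand. *Mcpt8* was 14.2 FPKM in bone replicate 3, against 16.3 and 15.9 FPKM in replicates 2 and 3 of osteoblasts. It was 3.51 and 3.14 FPKM in replicates 1 and 2 of bone and 3.13 FPKM in replicate 1 of osteoblasts, which corresponds to about 49.7, 39.4 and 36.3 read pairs. No other member exceeded 0.11 FPKM in those 3 libraries. The gap between the 2 sets of values depended on the scale. The lowest value with *Hbb-bt* was 4.05 times the highest of the others in FPKM, 2.84 times in TPM (the same values rescaled to one total in every library) and 1.84 times in FPKM scaled to the sum of named genes.

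The ratio of coverage to FPKM was not typical for every member. For *Mcpt8* it was 79.0 to 84.3% of the ratio typical of its library, against 100% for *Prg2*, *Fcer1a*, *Mcpt4*, *Cma1* and *Tpsb2*. That ratio was 97.8 to 98.2% for *Epx*, 95.5% for *Cpa3*, 90.6 to 94.2% for *Prg3* and 35.9 to 39.1% for *Ms4a2*. The part of this ratio in the *Mcpt8* value of about 3 FPKM outside the libraries with *Hbb-bt* was not tested. *Prss34*, the gene of another protease of mouse basophils and a gene outside the 10, was 19.8, 21.3 and 20.2 FPKM in bone replicate 3 and osteoblasts replicates 2 and 3, and was listed at 0 in the other libraries, where *Mcpt8* was not.

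The subunits of the IgE receptor were low in these libraries, and *Ms4a2* was near their lower limit. *Fcer1a* encodes the alpha chain, which binds IgE, and occupies 173221284 to 173227214 of Chr. 1, minus strand. It was 0.867 FPKM in bone replicate 3, against 1.40 and 1.81 FPKM in replicates 2 and 3 of osteoblasts, or about 14.9, 32.6 and 31.6 read pairs. *Ms4a2* encodes the beta chain, which amplifies the signal, and occupies 11615523 to 11623719 of Chr. 19, minus strand. It was 0.239, 0.126 and 0.454 FPKM in the same libraries. Both were listed at 0 in the other 3 libraries. By FPKM *Ms4a2* was 27.5% of *Fcer1a* in bone replicate 3 and 25.0% in osteoblasts replicate 3. In osteoblasts replicate 2 *Ms4a2* was under the limit of 3 read pairs on 1 kb set for ratios. The proportion was smaller by coverage. Coverage was 0.215 for *Ms4a2* and 2.17 for *Fcer1a* in bone replicate 3, and 0.452 and 4.63 in osteoblasts replicate 3.

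The 4 mast cell proteases summed to 2.89 to 3.28 FPKM in the libraries with *Hbb-bt*, against 1.11 to 2.27 FPKM for the IgE receptor subunits. *Cpa3*, carboxypeptidase A3, which basophils also express, occupies 20215620 to 20242181 of Chr. 3, minus strand. It was 1.06 FPKM in bone replicate 3, against 1.63 and 1.303 FPKM in replicates 2 and 3 of osteoblasts, or about 25.6, 53.4 and 32.2 read pairs. *Tpsb2*, a tryptase at 25366550 to 25368094 of Chr. 17, plus strand, was 1.04, 0.666 and 0.435 FPKM. *Cma1*, a chymase of connective tissue mast cells at 55941453 to 55944661 of Chr. 14, minus strand, was 0.523, 0.595 and 0.985 FPKM. *Mcpt4*, another such chymase on the same strand from 56059744 to 56062310, was 0.305 FPKM in bone replicate 3 and 0.560 FPKM in osteoblasts replicate 3, or about 5.0 and 9.4 read pairs, and was listed at 0 in osteoblasts replicate 2. These 4 genes were listed at 0 in the libraries without *Hbb-bt*, where they were not detectable at this depth. *Tpsb2* has a close homolog in *Tpsab1* (at most 0.339 FPKM) and *Mcpt4* has several, so reads of a shared stretch may be assigned to either copy.

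Among the libraries with *Hbb-bt* the order of the members was not the same. The eosinophil genes *Prg2*, *Prg3* and *Epx* were highest in bone replicate 3, as was *Tpsb2*. *Cpa3* was highest in osteoblasts replicate 2, as was *Mcpt8* in FPKM, though in TPM and scaled to named genes *Mcpt8* was highest in osteoblasts replicate 3. Highest in that library too were *Ms4a2*, *Fcer1a*, *Mcpt4* and *Cma1*. *Mcpt8* was 0.950% of *Prg2* in bone replicate 3, 1.37% in osteoblasts replicate 2 and 1.47% in osteoblasts replicate 3, a spread of 1.54 times. *Cpa3* was 7.44%, 10.0% and 8.21% of *Mcpt8* in the same order. With 1 library each these orders have no replicate check, and those of the genes under 2 FPKM rest on 53.4 read pairs or fewer.

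**Figure D2:**
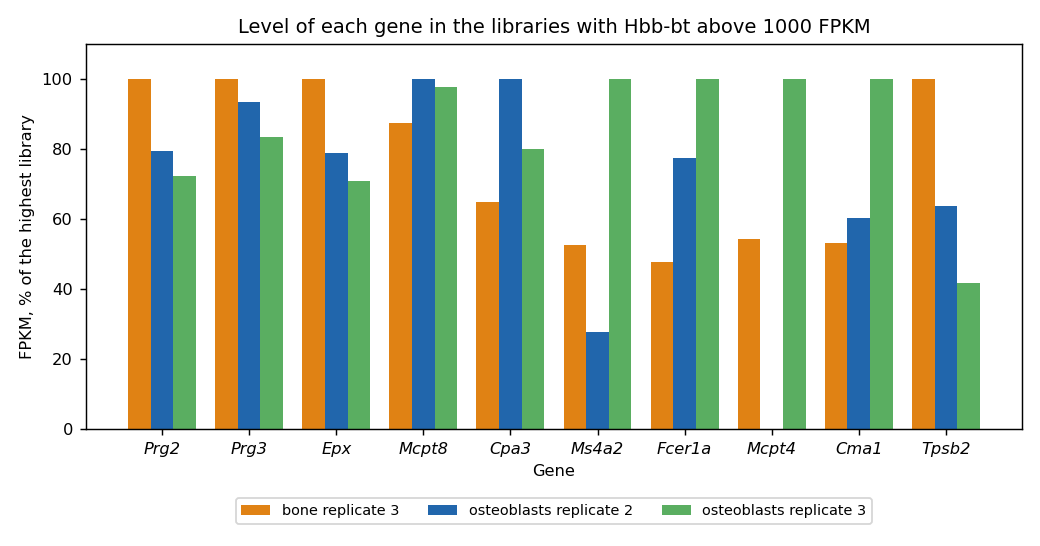
FPKM of each gene on the y axis, as a percentage of its highest library, in the 3 libraries with *Hbb-bt* above 1000 FPKM. Bars of *Prg2*, *Prg3* and *Epx* fall from bone replicate 3 to osteoblasts replicate 3, to between 71.0 and 83.3%, while *Fcer1a* and *Cma1* run in the opposite order.

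The members were set against genes of other blood cells within the same libraries. *S100a9*, a calcium-binding protein of neutrophils, was 4775, 7072 and 8033 FPKM in bone replicate 3 and osteoblasts replicates 2 and 3. *Prg2* was accordingly 31.3%, 16.8% and 13.5% of *S100a9*, a spread of 2.32 times, which is wider than the spread of *Epx* over *Prg2*. *Mcpt8* was 0.297%, 0.230% and 0.198% of *S100a9*. *Ptprc*, the CD45 antigen of all white cells, was 12.9, 28.8 and 39.3 FPKM in these libraries and 28.9, 18.4 and 11.9 FPKM in bone replicate 1, bone replicate 2 and osteoblasts replicate 1. It did not part the libraries, so white cell RNA was present in those without *Hbb-bt* too. *Prg2* was 116, 41.2 and 27.5 times *Ptprc* in bone replicate 3 and osteoblasts replicates 2 and 3.

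Lists of markers moved with the members, and their part in the results was not tested. The 10 neutrophil genes with a named feature summed to 15106 to 18334 FPKM in the libraries with *Hbb-bt* and to 2.74 to 10.9 FPKM in the others, and the 4 B cell genes to 90.8 to 105 FPKM against 0 in each of the others. The 7 macrophage genes ran the other way, with 409 to 540 FPKM in the libraries with *Hbb-bt* and 1417 to 2804 FPKM in the others. The 4 skeletal muscle genes summed to 235 to 983 FPKM and to 1.60 to 3.82 FPKM. In bulk RNA fewer cells of a type and less RNA per cell cannot be told apart. In each library with *Hbb-bt*, every member except *Mcpt4* was above its values in all of the other 3 libraries, which makes 9 of 10 members by FPKM, by TPM and by FPKM scaled to the sum of named genes. The same held for 32.4% of the 27562 genes with an FPKM above 0 in any library. Among genes with a mean of at least 1 FPKM it held for 4 of 4 members and for 38.4% of the 12112 genes. *Prg2*, *Prg3* and *Epx* were at most 0.11 FPKM in the other libraries and reached this mean only through those with *Hbb-bt*. For them the filter nearly fixed the order, so the 4 of 4 cannot be read against the share of all genes.

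Other genes of the eosinophil lineage behaved much like the members. Of 8 listed, 6 have a named feature, and all 6 were higher in each library with *Hbb-bt* than in any other. So were 32.4% of the 27562 genes above 0 FPKM in any library, and all 10 neutrophil and all 4 B cell genes, so this order is not particular to eosinophil genes. *Ear6*, an eosinophil-associated ribonuclease, was 87.2, 82.9 and 88.5 FPKM in bone replicate 3 and osteoblasts replicates 2 and 3, and at most 0.0829 FPKM elsewhere. *Ear1*, a close homolog, was 3.55, 21.9 and 36.9 FPKM, an uneven set of values in a family whose members share sequence. *Alox15*, the 12/15-lipoxygenase, was 24.8, 25.5 and 25.4 FPKM. *Siglecf*, a surface lectin of eosinophils, was only 2.51, 5.37 and 2.71 FPKM.

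Of 6 further basophil genes, 4 were higher in each library with *Hbb-bt* than in any other, against 32.4% of the 27562 genes above 0 FPKM in any library. Among the 4, *Cd200r3* was only 0.0308, 0.0780 and 0.274 FPKM in bone replicate 3 and osteoblasts replicates 2 and 3. Just the last of these values reached the FPKM of 3 read pairs on 1 kb. *Ms4a3*, a gene of granulocyte progenitors, was 50.3 to 69.6 FPKM in the libraries with *Hbb-bt* and listed at 0 in the others. *Hdc*, the enzyme that makes histamine, was 17.4, 27.2 and 23.9 FPKM. Both are expressed in other marrow cells as well. *Il3ra*, the alpha chain of the receptor for interleukin-3, ranged from 4.37 to 9.28 FPKM over the 6 libraries without this order. Scaled to the sum of named genes, *Il3ra* was lower in each library with *Hbb-bt* than in any other. *Il4* was 0.766 FPKM in bone replicate 1, 0.291 in bone replicate 3 and 0.208 in osteoblasts replicate 1, and was listed at 0 in the rest.

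Most of the 14 further mast cell genes were low or had another pattern. *Mcpt9*, *Tpsg1* and *Tph1* were listed at 0 in all 6 libraries, and *Mcpt1*, *Mcpt2*, *Mrgprb1* and *Mrgprb2* were above 0 in osteoblasts replicate 3 alone, at 0.181 FPKM or less. *Kit*, the receptor for stem cell factor, which blood progenitors also carry, was 8.08, 15.7 and 13.7 FPKM in the libraries with *Hbb-bt* and 1.59 to 4.06 FPKM in the others, but these ranges overlapped when scaled to the sum of named genes. *Ndst2*, which modifies heparin, was 9.84 to 12.1 FPKM against 3.41 to 8.77 FPKM, and overlapped in TPM. *Il1rl1*, the receptor for interleukin-33, was 3.01 to 3.33 FPKM against 0.111 to 0.240 FPKM. *Hpgds*, a prostaglandin D synthase, was lower in the libraries with *Hbb-bt*, at 1.19 to 1.95 FPKM against 6.24 to 17.1 FPKM.

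Of 9 signalling genes of the IgE receptor, 7 have a named feature, and all of these except *Lat* were above 4 FPKM in every library. *Inpp5d*, a phosphatase that restrains the signal, ranged from 39.5 to 68.9 FPKM, and *Lyn*, a kinase that starts it, from 25.2 to 48.2 FPKM. *Lat*, an adaptor shared with T cells and platelets, was 23.9 to 28.3 FPKM in the libraries with *Hbb-bt* and at most 0.145 FPKM in the others. *Plcg2* was 36.3 to 40.5 FPKM against 9.67 to 17.4 FPKM. Scaled to the sum of named genes, *Inpp5d* and *Lyn* were lower in each library with *Hbb-bt* than in any other, while *Lat* and *Plcg2* stayed higher. *Fcer1g* and *Syk* have no feature under their own name and were not analysed here.

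Among transcription factors, *Cebpe*, needed for granules of neutrophils and eosinophils, was 61.3, 65.7 and 61.8 FPKM in bone replicate 3 and osteoblasts replicates 2 and 3 and at most 0.111 FPKM elsewhere. *Zfpm1*, a cofactor of GATA1, was 40.6 to 68.0 FPKM against 0.728 to 1.92 FPKM. Both also act in other blood lineages. *Gata1* was 55.5 to 61.9 FPKM in the libraries with *Hbb-bt* and at most 0.0157 FPKM in the others. *Gata2* was 3.49 to 4.68 against 0.467 to 1.62 FPKM. By FPKM, 6 of the 10 factors listed were higher in each library with *Hbb-bt* than in any other. So were 32.4% of the 27562 genes above 0 FPKM in any library. *Mitf* alone of the 10 ran the other way, at 1.97 to 3.71 against 6.07 to 8.83 FPKM. *Cebpa*, which starts granulocyte fate, was 79.7, 35.2 and 1.76 FPKM in bone replicates 1, 2 and 3 and 3.56, 22.9 and 19.3 FPKM in osteoblasts replicates 1, 2 and 3, without an order by *Hbb-bt*, and *Xbp1* ranged from 21.7 to 79.6 FPKM. Of the growth factors, *Kitl*, which sustains mast cells and is made by stroma, was 2.19 to 3.13 FPKM in the libraries with *Hbb-bt* and 6.50 to 15.7 FPKM in the others. *Csf2rb2*, a receptor chain, ranged from 2.12 to 4.49 FPKM. *Il3* and *Csf2* were listed at 0 in all 6 libraries, and *Il5* reached at most 0.0710 FPKM.

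**Figure D3:**
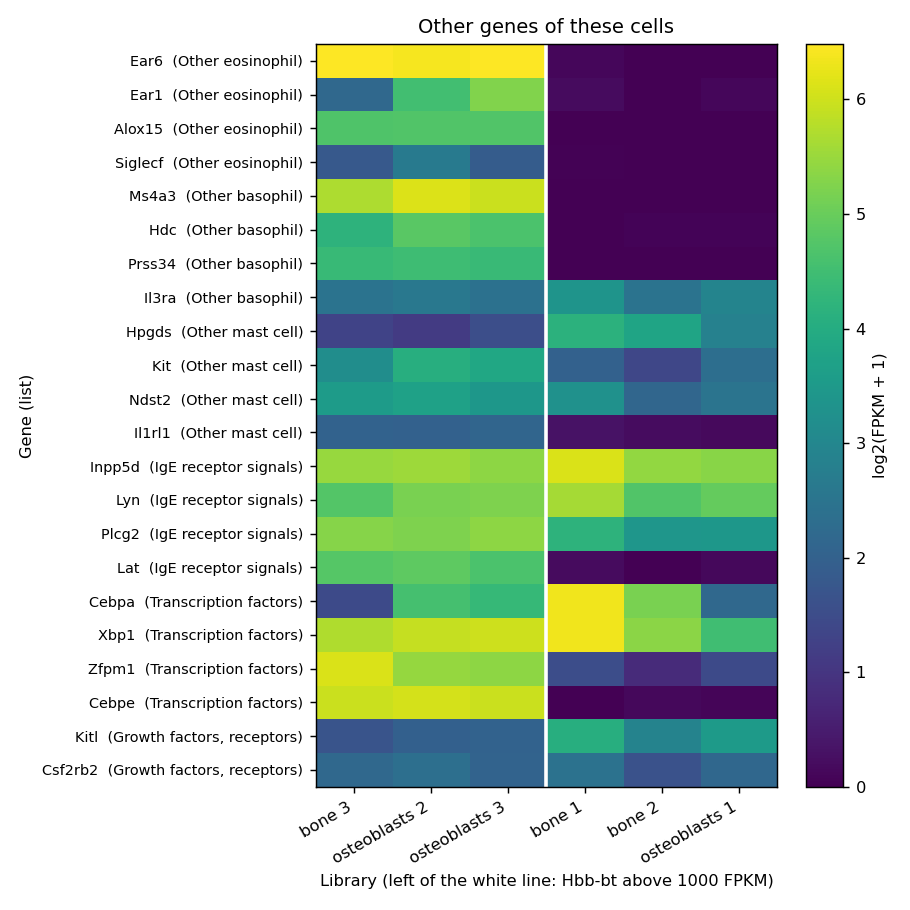
Colour gives log2(FPKM + 1) of 22 further genes, in rows by list, with 1 column per library and the 3 with *Hbb-bt* above 1000 FPKM to the left of the white line. The other eosinophil genes and *Ms4a3*, *Hdc*, *Prss34*, *Lat* and *Cebpe* are dark on the right, while *Hpgds* and *Kitl* are brighter there.

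*Mcpt8*, *Mcpt4* and *Cma1* belong to the chymase locus, a cluster of granule protease genes. The 10 genes listed for it span 321 kb of Chr. 14 in the deposited tables, from 55941453 to 56262260. *Ctsg*, cathepsin G of neutrophils and monocytes, is on the minus strand too, with a gap of 14607 bases between it and *Mcpt8*. It was 98.0, 139 and 99.5 FPKM in bone replicate 3 and osteoblasts replicates 2 and 3, but was listed at 0 in the other 3 libraries. *Mcpt4*, 19855 bases on the other side of *Mcpt8*, reached 0.560 FPKM. Within the locus, only *Mcpt8* and *Ctsg* exceeded 1 FPKM in any library. *Cma2* and *Gzmc* ran the other way, at 0.0955 to 0.938 FPKM and 0.534 to 0.951 FPKM in the libraries without *Hbb-bt* and listed at 0 in the rest. The lowest of these values, that of *Cma2* in bone replicate 1, is under the 0.181 FPKM of 3 read pairs on 1 kb there.

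**Figure D4:**
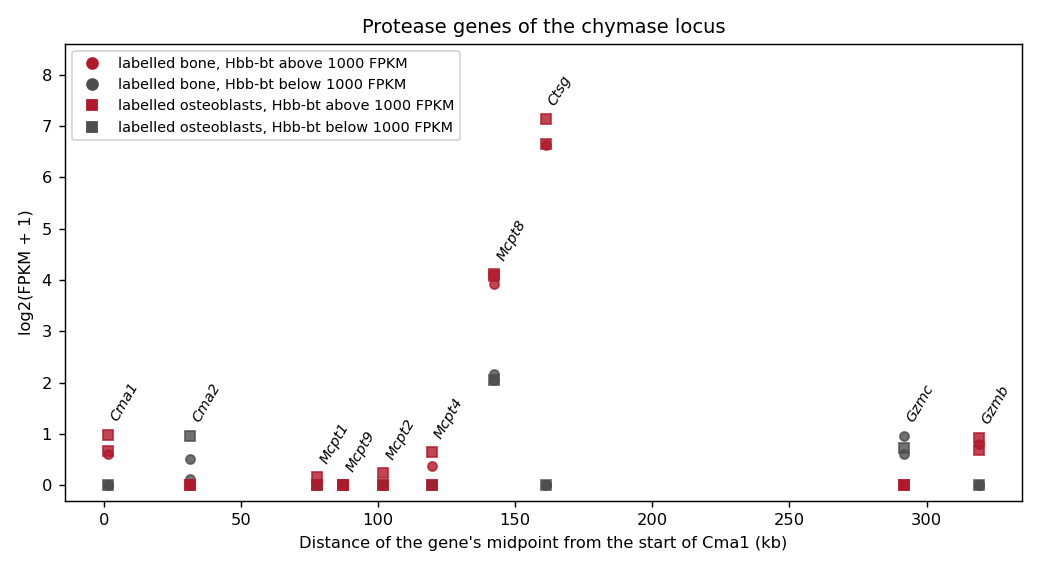
log2(FPKM + 1) of 10 protease genes on the y axis against the distance of each gene's midpoint from the start of *Cma1* in kb, with 1 point per library, circles for bone, squares for osteoblasts and red for *Hbb-bt* above 1000 FPKM. *Ctsg* is high in the 3 red libraries and at 0 in the others, while its neighbour *Mcpt8* is above 0 in all 6.

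The design compares osteoblasts with bone, and under the 2 labels the values of every member overlapped. *Prg2* was 498 ± 863 FPKM (SD, n = 3) in bone and 756 ± 657 FPKM (SD, n = 3) in osteoblasts. *Epx* was 45.5 ± 78.8 and 68.2 ± 59.3 FPKM, and *Prg3* 31.9 ± 55.2 and 56.4 ± 49.0 FPKM. *Mcpt8* was 6.95 ± 6.28 FPKM in bone and 11.8 ± 7.47 FPKM in osteoblasts. The difference between labels was smaller than the SD within either label for 7 of the 10 members. For *Cpa3*, *Fcer1a* and *Cma1* it was larger than the SD of bone and smaller than that of osteoblasts, with *Cma1* at 0.174 ± 0.302 FPKM (SD, n = 3) in bone and 0.526 ± 0.496 FPKM (SD, n = 3) in osteoblasts.

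limma on log2(FPKM + 1), with Benjamini-Hochberg adjustment over the 12112 genes with a mean of at least 1 FPKM, called none of the 4 members that passed this filter and 0% of all genes tested, while 17 genes had an unadjusted p under 0.05. The log2 fold change of *Prg2* in osteoblasts over bone was 3.20 (standard error 3.27, limma adjusted p = 0.999). That of *Epx* was 2.09 (standard error 2.21), of *Prg3* 2.08 (standard error 2.08) and of *Mcpt8* 0.69 (standard error 0.72), with the same adjusted p. The median over the 4 was 2.09, against 0.12 over all genes tested. *Prg2*, *Prg3* and *Epx* passed the filter only through the libraries with *Hbb-bt*, of which more are labelled osteoblasts than bone. Without the filter the median was 0.57 over all 10 members and 0.035 over all genes. These medians carry no test and cannot part the labels from *Hbb-bt*. The other 6 members were read from a fit without the filter (27562 genes, 0% called, 173 at an unadjusted p under 0.05), in which their log2 fold changes were between 0.08 for *Tpsb2* and 0.62 for *Fcer1a*, with limma adjusted p = 1.00. An exact two-sided permutation test of single members gave p = 0.4 for *Mcpt8*, *Cpa3*, *Fcer1a* and *Cma1*, p = 0.7 for *Ms4a2* and p = 1 for the rest, and it cannot go below 0.1. For 0 of the 10 members did the values under the labels not overlap, and this was the case for 1.67% of the 27562 genes and for 0.916% of the 12112.

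Leaving out single libraries changed the calls, and the calls of members rested on how limma sets the spread of a gene. Without bone replicate 3, 0.636% of the 12112 genes were called, and *Prg2*, *Epx* and *Prg3* were among them with log2 fold changes of 6.69, 4.46 and 4.28 (limma adjusted p = 0.0489 for each). Without osteoblasts replicate 1, 2.48% were called, with limma adjusted p = 0.00554 for *Prg2*, 0.0121 for *Epx* and 0.0101 for *Prg3*. limma draws the SD of each gene toward that of all genes. For *Prg2* without bone replicate 3 it used an SD of 1.63 on the log2 scale where the libraries had 4.78, so the change was 1.53 standard errors by the gene's own spread. With a robust variance, an alternative added after seeing the data that lets highly variable genes keep their own spread, the fit without bone replicate 3 called 1.96% of genes and the fit without osteoblasts replicate 1 called 2.81%, and neither called any of the 4 members. The limma adjusted p of *Prg2* was then 0.699 and 0.738. *Mcpt8* was called in none of these fits. Leaving out any of the other 4 libraries called 0 genes (6 to 30 had an unadjusted p under 0.05). A fit with a replicate block called 0.405% of the 12112 genes and 1 of the 4 members, *Prg2*, with 0% called under a robust variance (412 genes at an unadjusted p under 0.05). Between libraries of one number, *Prg2* differed by -0.15 and -0.47 on the log2 scale (osteoblasts minus bone) for numbers 1 and 3 and by 10.21 for number 2, which sets a library without *Hbb-bt* against one with it. Since bone replicate 3 and osteoblasts replicate 1 differ from the other libraries of their labels in *Hbb-bt*, the fits without them compare labels that also differ in blood RNA, and the 2 cannot be told apart.

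**Figure D5:**
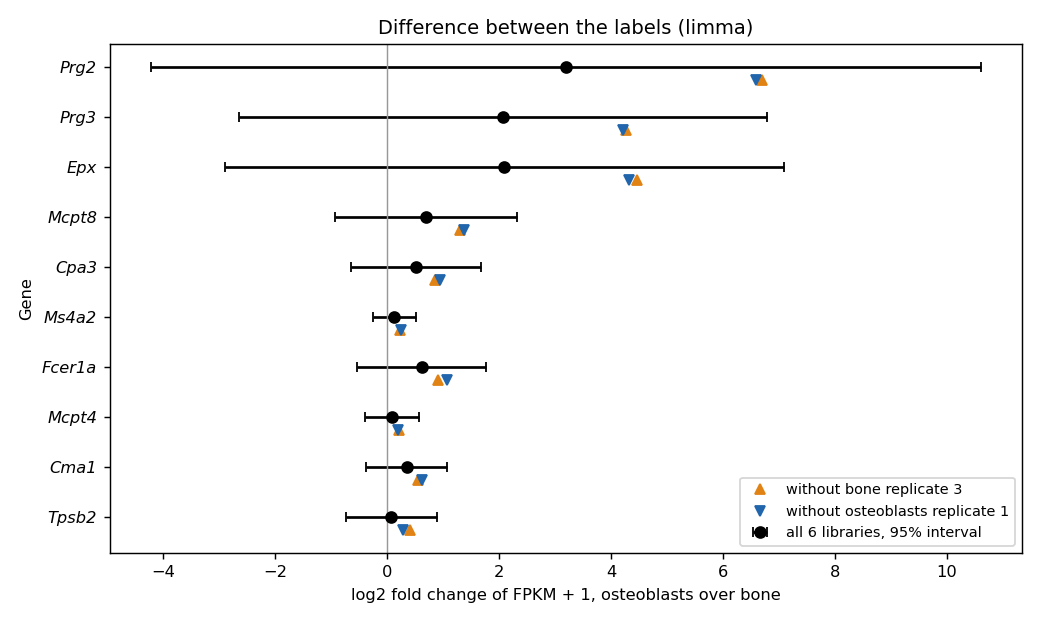
limma log2 fold change of FPKM + 1, osteoblasts over bone, on the x axis for each member, with black points and 95% intervals from all 6 libraries and triangles, drawn without intervals, for fits without bone replicate 3 or osteoblasts replicate 1. All 10 intervals include 0, and the triangles of *Prg2*, *Prg3* and *Epx* lie above 4.

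Genes with profiles most like those of 3 members were found by the mean absolute difference of log2(FPKM + 1), centred on each gene's mean, over the 6 libraries. Nearest to *Prg2* among 12111 other genes were *Ltf* (0.29), *Nprl3* (0.33) and *Igha* (0.35). *Ltf*, lactoferrin of neutrophil granules, was 851, 890 and 1127 FPKM in bone replicate 3 and osteoblasts replicates 2 and 3 and at most 0.11 FPKM elsewhere. *Nprl3* lies beside the alpha-globin genes, and *Igha* is the heavy chain gene of IgA. The *Nprl3* feature was 5649, 6462 and 7812 FPKM in bone replicate 3 and osteoblasts replicates 2 and 3 and 4.56 to 9.83 FPKM elsewhere. *Hba-a1* and *Hba-a2*, 2 alpha-globin genes, have no feature under their own name. Whether their reads fall in the *Nprl3* feature was not tested. Nearest to *Mcpt8* were *Fbp1* (0.03), *Vamp5* (0.04) and *Dnase1l3* (0.06), of which *Vamp5* was 18.3 to 19.8 FPKM in the libraries with *Hbb-bt* and 3.78 to 4.66 FPKM in the others. Nearest to *Cpa3* were *Gm26931*, *Gm44552* and *CT009754.6* (each 0.06), none above 2.67 FPKM. These likenesses describe 6 libraries that fall into 2 sets and carry no test.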

How the data were processed

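RNA-seq libraries of 3 bone and 3 osteoblast samples were grouped by their deposited labels. By the study's methods, the authors used HISAT2 2.0.5 to align paired reads of 75 bp to GRCm38, and estimated expression with StringTie 1.3.3 (versions per the submitters' processing notes, which also list SAMtools 1.7). The authors deposited for each feature its FPKM, scaled to mapped reads, its TPM, and its coverage, the mean depth per base. Read counts were not used here. Rows with one name were summed. The modal coverage-to-FPKM quotient gave the depth, and read pairs were approximated with the longest GENCODE vM1 protein-coding transcript. Such numbers and limits cover counting error only. Ratios were taken where both genes reached the FPKM of 3 pairs on 1 kb.

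Labels were compared on log2(FPKM + 1) with limma 3.58.1 (lmFit, eBayes with trend) in R 4.3.3 where the mean FPKM reached 1, at an adjusted p of 0.05, and with exact permutation tests. limma was tested on simulated data in which all genes shared one spread, which real genes do not. Bone and marrow came from 3 mice by the study's methods, but the labels do not say which mouse gave which library, so p-values measure the spread between these samples. Other steps used Python 3.11.15, pandas 2.3.3, numpy 2.4.6, scipy 1.17.1 and matplotlib 3.10.9. The members, lists and alternatives were chosen with earlier results of these data known. Named genes are the members, up to 4 per list by highest FPKM (at least 1), genes listed at 0, and 3 genes nearest *Prg2*, *Mcpt8* and *Cpa3*. *Il5*, *Tpsab1*, *Mcpt1*, *Mcpt2*, *Mrgprb1*, *Mrgprb2*, *Cma2*, *Gzmc*, *Col1a1*, *Ibsp*, *Dmp1* and *Sost* were added after their values were seen. So were *Gata1*, *Gata2*, *Mitf*, *Cd200r3*, *Il4*, *Col1a2*, *Sp7*, *Runx2*, *Alpl* and *Phex*. Alternatives were pseudocounts of 0.1 and 0.01, other filters, TPM, scaling to named genes or the 75th percentile, quantile normalization, no trend, the replicate number as a block, and leaving out each library. A robust variance was added after seeing the data.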

Additional observations from a re-analysis of the deposited data

How the results depend on the processing

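Between the labels limma called 0 of 12112 genes (17 at an unadjusted p under 0.05), and 0 under another pseudocount, filter or scaling, in TPM, after quantile normalization and without a trend (17 to 173). Scaling moved the median log2 fold change of all genes from 0.12 to between -0.04 and 0.05. Leaving out 1 library gave 0 to 300 calls, with 77 without bone replicate 3 and 300 without osteoblasts replicate 1. With a robust variance, added after seeing the data, these were 237 and 340, none of them members, and the fit to all 6 libraries called 0 (16 at an unadjusted p under 0.05). A replicate block raised the calls to 49 (46 higher and 3 lower in osteoblasts), with 501 at an unadjusted p under 0.05, among them *Prg2* alone of the members (log2 fold change 3.20, limma adjusted p = 0.00173). limma used an SD of 0.819 for it where the blocked residuals had 4.30, and a robust variance gave 0 calls and adjusted p = 1.00 for *Prg2*. Deviations of same-numbered libraries correlated at 0.84, -0.75 and 0.83 across genes. All pairs across labels followed *Hbb-bt* (0.80 to 0.84 for like, -0.91 to -0.72 for unlike libraries), so these values cannot show whether a number marks one mouse. The log2 fold changes of *Prg2*, *Prg3*, *Epx*, *Mcpt8*, *Cpa3*, *Fcer1a* and *Cma1* were above 0 under every alternative run. In every fit a larger share of the osteoblasts libraries than of the bone libraries had *Hbb-bt*. For genes higher in those libraries the sign was largely set in advance and is no check. Between bone and osteoblasts replicate 3, both with *Hbb-bt*, *Prg2*, *Prg3* and *Epx* were lower in osteoblasts (log2 difference -0.47, -0.26 and -0.49). *Mcpt8*, *Cpa3*, *Fcer1a* and *Cma1* were higher there (0.15, 0.16, 0.59 and 0.38). When 1 library was left out, the log2 fold change of *Ms4a2* ran from -0.017 to 0.25 and that of *Mcpt4* from -0.13 to 0.21. That of *Tpsb2* ran from -0.10 to 0.42, and each of these was below 0 in some fit. *Tpsb2* was at -0.10 without bone replicate 1 or 2 and at -0.08 without osteoblasts replicate 2. A pseudocount of 0.01 moved *Prg2* to 4.27 and *Cpa3* to 2.55. Members under 2 FPKM are limited by depth.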
